A study of Homo sapiens with 12 samples.

Results

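The replication-independent histone variants are the genes of histones that cells make outside S phase as well as in it, and 9 of them were chosen by symbol: H2AFZ, H2AFV, H2AFX, H2AFY, H2AFJ, H3F3A, H3F3B, H1F0 and H1FX. All 9 were listed in both count tables, among 17099 gene symbols in the OCI-AML2 table and 16820 in the MOLM-13 table. OCI-AML2 and MOLM-13 are established human acute myeloid leukaemia cell lines. OCI-AML2 cells received vehicle (DMSO) or 200 nM selinexor, and MOLM-13 cells received vehicle (DMSO) or 75 nM selinexor, each for 36 h. Selinexor is a small molecule that blocks XPO1, the receptor that carries many proteins and some RNAs out of the nucleus. RNA of whole cells was poly(A)-selected and sequenced without strand information, with 3 libraries in each of the 4 groups, which the submitters describe as biologically independent. Each line is a single culture model with 1 dose, so that line and dose cannot be told apart in any difference between the lines.

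Most histone protein is made from clustered genes that are read in S phase into mRNAs with a stem-loop in place of a poly(A) tail. The variant genes lie outside those clusters, most have introns or ordinary poly(A) signals, and their mRNAs are therefore taken up by poly(A) selection. H2AFX is known to make both forms of mRNA, of which the selection takes the one with a tail. Their proteins replace the common histones at particular places or moments: H2A.Z (H2AFZ and H2AFV) at promoters, H3.3 (H3F3A and H3F3B) in transcribed and regulatory chromatin, H2A.X (H2AFX) as the form phosphorylated around DNA breaks, macroH2A1 (H2AFY) in repressed chromatin, and the linker histones H1.0 (H1F0) and H1X (H1FX) between nucleosomes. H1.0 is known for accumulating in cells that have stopped dividing or have differentiated, and H2A.J (H2AFJ) for its link to senescence.

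Total counts per library ranged from 8114892 to 11769061, and levels are given as CPM, the counts scaled to a common library size by TMM within a line. A floor of 3 counts was worth 0.249 to 0.375 CPM, depending on the library, and covers counting error only. XPO1 itself rose, with a log2 fold change of 0.63 ± 0.04 (SE) in OCI-AML2 and 0.66 ± 0.03 in MOLM-13, and CDKN1A, which encodes the CDK inhibitor p21, rose by 1.49 ± 0.06 and 1.53 ± 0.04. MKI67, a marker of dividing cells, fell by 1.49 ± 0.05 and fell by 2.02 ± 0.04 on the log2 scale in the same order (edgeR, 3 libraries against 3). All 10 fixed myeloid markers were listed in both lines, and their summed level was 2958 to 3167 CPM with vehicle and 11292 to 11568 CPM with selinexor in OCI-AML2, and 1375 to 1390 CPM against 2995 to 3033 CPM in MOLM-13. LYZ had the largest fold change of this list in both lines (log2 fold change 2.47 and 3.04). Of the 9 myeloid markers tested per line, 6 rose and 1, MPO (-0.53), fell in OCI-AML2. In MOLM-13 7 rose, MPO among them (1.13), and 0 fell. The medians were 0.43 and 0.49. Over all tested genes, 31.3% rose and 31.8% fell in OCI-AML2, and 31.8% did each in MOLM-13. Of the 10 lymphoid markers, 3 were listed in OCI-AML2 and 5 in MOLM-13, at a summed level of 0.539 to 2.87 CPM over the 12 libraries. Erythroid and megakaryocyte markers summed to 10.7 to 13.4 CPM in OCI-AML2 and 28.9 to 33.6 CPM in MOLM-13, with 5 of 10 listed in each. Stromal and epithelial markers summed to 53.8 to 61.3 CPM with vehicle against 91.9 to 93.2 CPM with selinexor (OCI-AML2), and to 20.3 to 21.9 CPM against 47.2 to 57.9 CPM (MOLM-13). PECAM1 rose in both lines (0.73 and 0.82), and KRT8 (1.57) and KRT18 (1.40) rose in MOLM-13; these were all of the markers called in that list, of 2 tested in OCI-AML2 and 3 in MOLM-13 (edgeR). In OCI-AML2, COL1A2 and CDH1 were at 0 with selinexor and KRT18 with vehicle. In MOLM-13, CDH1 was at 0 with selinexor and COL1A2 with vehicle. None of these was tested in the line where it was at 0. The part of these shifts in the histone results was not tested. In bulk RNA, fewer cells in a phase of the cell cycle and less mRNA per cell cannot be told apart.

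The 2 pairs of related genes are shown first at the end of their coding sequences, because they make the same or almost the same protein from different RNA. H3F3A and H3F3B both encode histone H3.3: their coding sequences have 411 bases each, of which 323 are identical (78.6%), and the translated proteins of 136 residues are the same. The last 60 coding bases with the stop codon, from the GENCODE 29 transcripts on GRCh38, read as follows, with capitals at the 12 bases that differ.
H3F3A: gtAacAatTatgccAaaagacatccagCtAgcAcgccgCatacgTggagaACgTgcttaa
H3F3B: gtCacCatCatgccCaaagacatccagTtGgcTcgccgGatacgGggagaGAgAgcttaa
H2AFZ and H2AFV encode the H2A.Z proteins H2A.Z.1 and H2A.Z.2. Their coding sequences have 387 bases each, 311 of them identical (80.4%), and 125 of 128 residues are the same. Capitals mark the 10 differing bases among the last 60.
H2AFZ: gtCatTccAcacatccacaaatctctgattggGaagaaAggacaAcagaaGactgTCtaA
H2AFV: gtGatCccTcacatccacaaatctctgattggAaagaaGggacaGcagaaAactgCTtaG

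Promoters are shown for the 4 members that were lower with selinexor in both lines and had CCAAT boxes, and for H3F3A, which was higher. The 250 bases before each RefSeq start site (GRCh38.p14) were searched on both strands for CCAAT, the box bound by NF-Y; for TTTGAA and TTCGAA, letters of the cell cycle homology region; for TTTGGCGC and TTTCGCGC, letters of E2F sites; for AAACACA, the H1 box; and for GGGCGG, the GC box. Bases that lie in an annotated exon of the gene itself are left out of the print. Capitals mark the motifs other than the GC box, and a CCAAT on the other strand appears as ATTGG.
H2AFZ (chr4:99950389-99950525, minus strand): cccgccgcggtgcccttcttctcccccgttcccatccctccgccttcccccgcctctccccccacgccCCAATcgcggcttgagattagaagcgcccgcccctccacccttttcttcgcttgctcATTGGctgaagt
H2AFV (chr7:44848088-44848337, minus strand): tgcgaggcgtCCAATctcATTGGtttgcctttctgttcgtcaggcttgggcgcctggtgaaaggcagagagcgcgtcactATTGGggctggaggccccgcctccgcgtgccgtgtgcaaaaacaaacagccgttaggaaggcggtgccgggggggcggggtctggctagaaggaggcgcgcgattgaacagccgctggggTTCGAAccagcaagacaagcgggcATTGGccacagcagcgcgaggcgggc
H2AFX (chr11:119095468-119095715, minus strand): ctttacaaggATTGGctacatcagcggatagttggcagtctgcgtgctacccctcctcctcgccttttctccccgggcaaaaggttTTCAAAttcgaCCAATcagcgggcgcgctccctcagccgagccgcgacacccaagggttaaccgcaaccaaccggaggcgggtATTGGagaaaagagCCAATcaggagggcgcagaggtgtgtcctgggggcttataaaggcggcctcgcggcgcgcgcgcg
H3F3B (chr17:75779781-75780029, minus strand): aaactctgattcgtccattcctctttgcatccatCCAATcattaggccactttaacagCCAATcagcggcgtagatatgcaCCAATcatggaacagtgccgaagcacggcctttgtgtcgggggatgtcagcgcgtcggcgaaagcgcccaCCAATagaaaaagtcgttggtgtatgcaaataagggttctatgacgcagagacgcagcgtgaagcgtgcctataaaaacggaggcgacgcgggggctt
H3F3A (chr1:226061581-226061830, plus strand): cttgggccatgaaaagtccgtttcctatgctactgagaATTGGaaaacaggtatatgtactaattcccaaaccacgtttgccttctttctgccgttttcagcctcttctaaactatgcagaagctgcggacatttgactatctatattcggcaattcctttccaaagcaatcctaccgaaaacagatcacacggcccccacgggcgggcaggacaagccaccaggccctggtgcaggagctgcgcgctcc
H2AFV, H2AFX and H3F3B each held 4 CCAAT boxes, and H2AFZ and H2AFJ held 3, of which 1 in H2AFZ lies in the part not printed. H3F3A held 1, and H2AFY and H1FX held 0. The whole H2AFY window, unlike the others, lies in annotated exons of H2AFY itself, since the annotated gene starts further upstream. Among 27305 promoters of the same length, 33.0% held at least 1 CCAAT, 3.09% at least 3 and 0.930% at least 4. H2AFV also held 1 TTCGAA (found in 1.20% of promoters) and H2AFX 1 TTTGAA (13.6%, on the other strand). H2AFZ held 2 GC boxes and H2AFV, H2AFY and H3F3A 1 each (42.3% of promoters), none of the matches overlapped each other, and neither E2F string (0.553% and 0.469%) nor AAACACA (4.95%) was in the 8 windows. These matches are letters in a window and not measured sites. H2AFJ with 3 boxes was not called in either line, on 21 to 54 counts per library, and H1FX with 0 was lower in OCI-AML2. The part of such boxes in the calls was not tested.

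Under selinexor, the genes for H2A.Z, H2A.X and the H3F3B copy of H3.3 fell in both lines, while H3F3A rose slightly and the gene for H1.0 rose in MOLM-13. In OCI-AML2, 8 of the 9 passed the filter on low counts, and 1 was higher and 5 were lower at an adjusted p under 0.05 (edgeR quasi-likelihood test, Benjamini-Hochberg over 12086 genes). Over all tested genes in that line, 63.1% were called, 31.3% higher and 31.8% lower. In MOLM-13, 9 passed, 2 were higher and 5 lower, where 63.6% of 11807 genes were called, 31.8% in each direction. Counted by overlap, the selinexor libraries of 6 members lay below all vehicle libraries in OCI-AML2, H1F0 at the floor among them, and those of 1 lay above, where 33.3% of all tested genes were lower and 33% higher in this way. In MOLM-13 this held for 5 members lower and 1 higher, beside 32.8% and 32.7% of all tested genes. The members' median log2 fold change was -0.45 over the 8 tested in OCI-AML2 and -0.18 over the 9 tested in MOLM-13. Over all tested genes it was 0.00 and 0.01. The MOLM-13 median includes H1F0, which rose there and was not tested in OCI-AML2, so the 2 medians do not compare the lines. H2AFZ, H2AFV, H2AFX, H2AFY, H3F3A and H3F3B each had a lower fold change in MOLM-13 than in OCI-AML2, and H1FX a higher one. That of H2AFJ, not called in either line, was -0.14 in OCI-AML2 and -0.15 in MOLM-13 (log2).

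**Figure D1:**
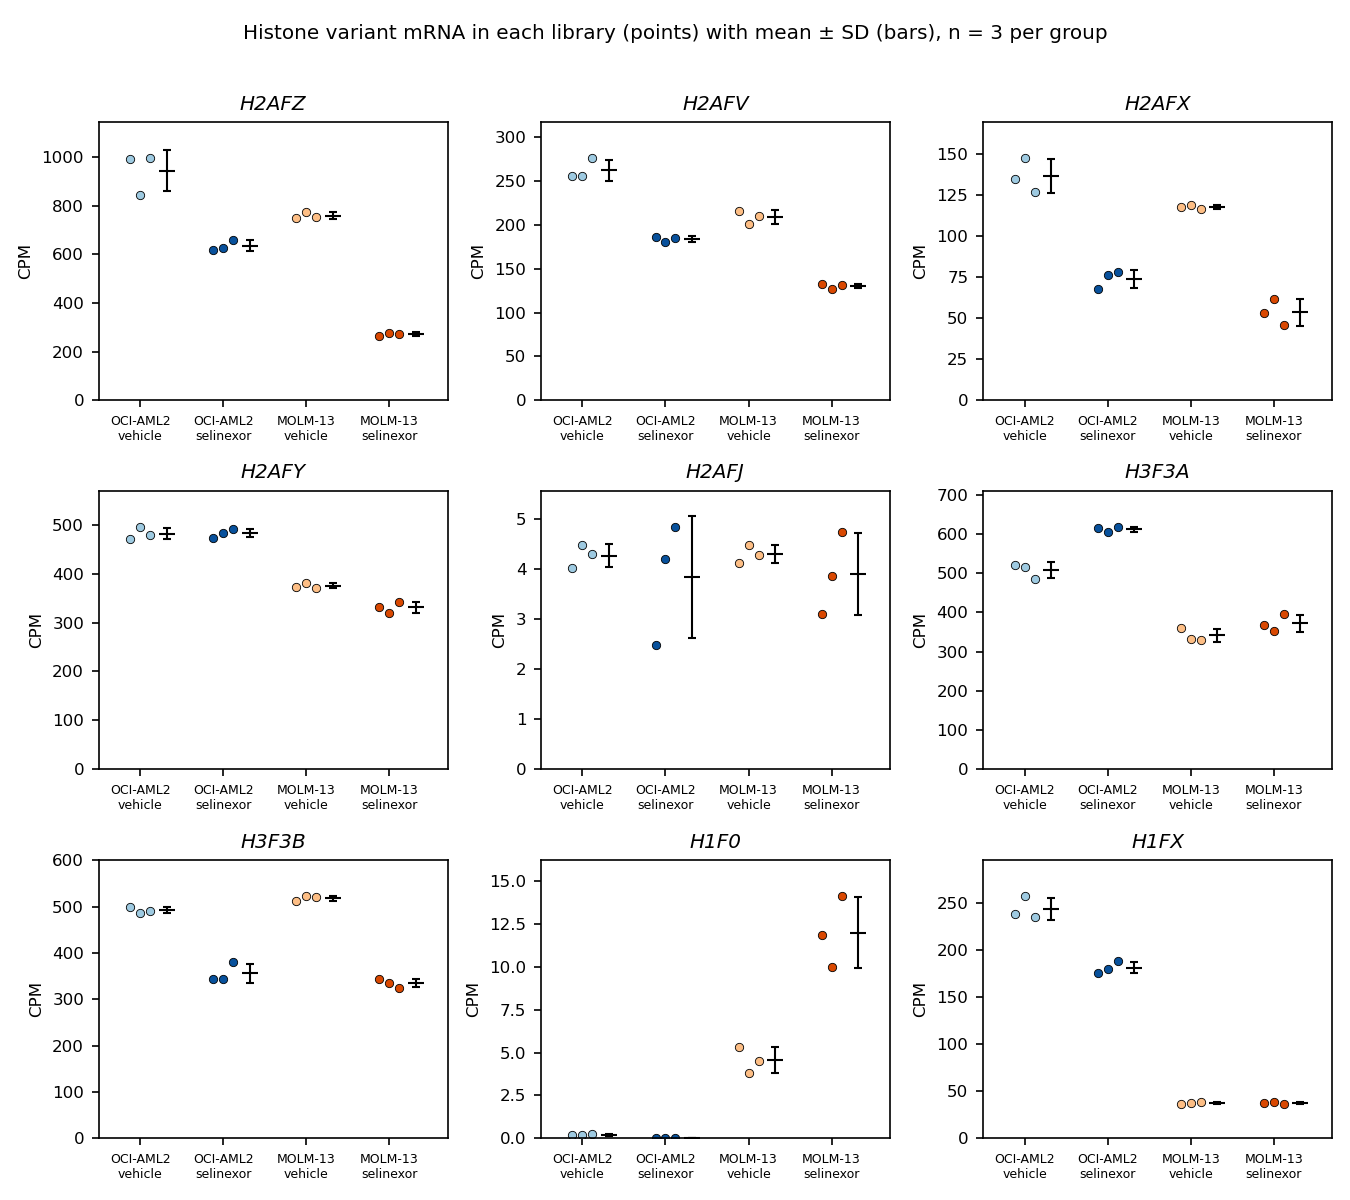
Level of each of the 9 histone variant mRNAs (CPM, linear axis from 0) in every library, with the 4 groups on the horizontal axis; points are libraries and bars the mean ± SD of 3. The selinexor points of H2AFZ, H2AFV, H2AFX and H3F3B lie below the vehicle points in both lines, and those of H1F0 above them in MOLM-13.

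H2AFZ (chr4:99948086-99950388 in GENCODE 29, GRCh38) is the main H2A.Z gene. In OCI-AML2 it was at 990, 845 and 994 CPM in the vehicle libraries and at 618, 625 and 660 CPM in the selinexor libraries. The groups did not overlap, although vehicle library 2 lay below the other two. H2AFZ fell by 32.7% (log2 fold change -0.57 ± 0.05, adjusted p = 1.3e-07, edgeR). In MOLM-13 the vehicle libraries were at 749, 774 and 751 CPM and the selinexor libraries at 265, 279 and 273 CPM, with a wide gap between the groups. There H2AFZ fell by 64.1% (log2 fold change -1.48 ± 0.03, adjusted p = 4.5e-62, edgeR), the largest fall among the tested members in either line. The interaction term of the 12-library fit was -0.95 ± 0.06 on the log2 scale (adjusted p = 2.84e-16, edgeR), so the fall was deeper in MOLM-13 at its dose. For this test of the difference, 30.1% of 12530 genes were called, 11.1% higher and 19% lower in MOLM-13.

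H2AFV (chr7:44826791-44848083) encodes the second H2A.Z protein. It was at 255, 255 and 276 CPM with vehicle and at 187, 180 and 185 CPM with selinexor in OCI-AML2, and at 216, 201 and 210 CPM against 133, 127 and 131 CPM in MOLM-13. All selinexor libraries lay below all vehicle libraries of their line. H2AFV fell by 29.9% in OCI-AML2 (adjusted p = 7.01e-14) and by 37.6% in MOLM-13 (adjusted p = 3.25e-26, edgeR). The difference between the lines was small, at -0.22 ± 0.06 on the log2 scale (adjusted p = 0.00469, edgeR), and did not pass the test without some single libraries (adjusted p = 0.227 without OCI-AML2 vehicle library 1).

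Within a library, the ratio of the H2A.Z genes does not depend on scaling. Per kb of annotated exon, H2AFZ was 7.42 ± 0.58 (SD, n = 3) times H2AFV in OCI-AML2 with vehicle and 7.12 ± 0.27 times with selinexor. In MOLM-13 it was 7.49 ± 0.40 times with vehicle and 4.31 ± 0.20 times with selinexor. The ratio thus stayed within the spread of libraries in OCI-AML2 (exact two-sided permutation p = 0.4), and in MOLM-13 the 3 selinexor libraries lay below the 3 vehicle libraries (difference of log2 ratios -0.80, exact p = 0.1). With 3 libraries against 3, 0.1 is the smallest p this test allows, and over the 5 ratio tests run it became 0.125 after Benjamini-Hochberg adjustment. Whether the ratio changed differently in the lines was not tested. The ratio itself depends on the length used: with the principal coding transcripts it was 2.76 ± 0.22 in OCI-AML2 and 2.79 ± 0.15 in MOLM-13 with vehicle.

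**Figure D2:**
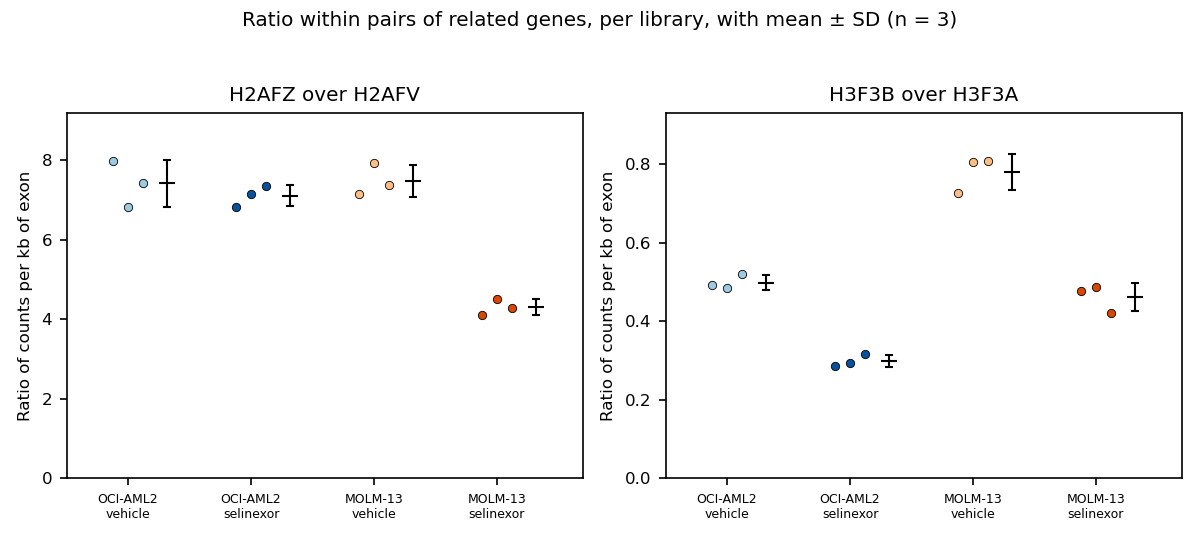
Ratio of H2AFZ to H2AFV and of H3F3B to H3F3A in every library, as counts per kb of annotated exon (linear axes from 0), by group; points are libraries and bars the mean ± SD of 3. H2AFZ over H2AFV drops from 7.49 to 4.31 in MOLM-13 and overlaps in OCI-AML2, and H3F3B over H3F3A is lower with selinexor in both lines.

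H2AFX (chr11:119093854-119095467) encodes H2A.X, whose phosphorylated form marks DNA breaks. It was at 135, 147 and 127 CPM with vehicle and 68.0, 76.1 and 77.9 CPM with selinexor in OCI-AML2. In MOLM-13 it was at 118, 119 and 117 CPM with vehicle and 52.9, 61.9 and 45.9 CPM with selinexor. The groups did not overlap in either line, and library 3 of MOLM-13 with selinexor was the lowest of the 12. H2AFX fell by 45.7% in OCI-AML2 (log2 fold change -0.88 ± 0.06, adjusted p = 5.97e-16) and by 54.2% in MOLM-13 (-1.13 ± 0.06, adjusted p = 3.84e-27, edgeR). In OCI-AML2 this was the largest fall among the 8 tested members. The difference between the lines was -0.30 ± 0.10 (adjusted p = 0.027, edgeR) and missed the threshold under 12 of 18 alternatives that gave a test, for example with DESeq2's size factors (adjusted p = 0.0501).

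H3F3A (chr1:226061851-226072001) and H3F3B (chr17:75776434-75785893) moved in opposite directions although they encode the same protein. H3F3B was at 500, 487 and 491 CPM with vehicle and 343, 345 and 380 CPM with selinexor in OCI-AML2, and at 512, 522 and 520 CPM against 343, 336 and 325 CPM in MOLM-13. No selinexor library reached a vehicle library of its line. H3F3B fell by 27.7% (adjusted p = 2.1e-13) and by 35.3% (adjusted p = 2.2e-31, edgeR). H3F3A was at 522, 516 and 486 CPM with vehicle and 615, 604 and 617 CPM with selinexor in OCI-AML2, again without overlap, an increase of 20.5% (log2 fold change 0.27 ± 0.04, adjusted p = 8.8e-08, edgeR). In MOLM-13 the vehicle libraries were at 361, 333 and 330 CPM and the selinexor libraries at 368, 353 and 396 CPM, so that the groups overlapped. The rise there was 9.11% (log2 fold change 0.13 ± 0.04, adjusted p = 0.00281, edgeR), and without selinexor library 3 it was no longer past the threshold (0.08, adjusted p = 0.0626).

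Per kb of annotated exon, H3F3B was 0.498 ± 0.019 (SD, n = 3) of H3F3A in OCI-AML2 with vehicle and 0.298 ± 0.016 with selinexor. In MOLM-13 the ratio was 0.780 ± 0.046 with vehicle and 0.462 ± 0.036 with selinexor. The log2 ratio changed by -0.74 in OCI-AML2 and by -0.76 in MOLM-13, and in each line no selinexor library overlapped a vehicle library (exact two-sided permutation p = 0.1, the smallest possible, 0.125 after adjustment). As a share of both genes per kb, H3F3B made up 33.2% and 23.0% in OCI-AML2 and 43.8% and 31.6% in MOLM-13, with vehicle and selinexor. These ratios and shares depend on the length used, and the changes of the log2 ratio do not. With the longest transcripts H3F3B ranked above H3F3A in MOLM-13 with vehicle. The interaction was -0.19 ± 0.06 for H3F3A (adjusted p = 0.00582) and -0.21 ± 0.06 for H3F3B (adjusted p = 0.00181, edgeR), and both lost the call when single vehicle libraries were left out, with adjusted p up to 0.395 and 0.164. That of H3F3A was also lost with DESeq2 and with upper quartile scaling (adjusted p = 0.0534 and 0.067). GENCODE lists 6 pseudogenes of H3F3A, 2 of H3F3B, 6 of H2AFZ and 1 of H2AFV, and 0 of them had a row in either table. Reads of such near copies may have been split or lost in counting, which makes the levels of these 4 genes less certain than those of the others. H3F3B also shares 214 exonic bases with UNK on the opposite strand, which was at 26.8 to 46.8 CPM in the group means and fell in both lines as well (log2 fold change -0.45 ± 0.08 and -0.24 ± 0.09, adjusted p = 1.74e-06 and 0.0205, edgeR). H2AFZ shares 223 with AC097460.1 on the opposite strand. The part of such shared reads in the results was not tested.

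H2AFY (chr5:135333900-135399914) encodes macroH2A1. In OCI-AML2 it was at 472, 495 and 480 CPM with vehicle and 474, 483 and 490 CPM with selinexor, and the groups overlapped throughout (log2 fold change 0.00 ± 0.04, adjusted p = 0.989, edgeR). In MOLM-13 it went from 374, 381 and 371 CPM to 333, 319 and 342 CPM without overlap, a fall of 11.8% (log2 fold change -0.18 ± 0.04, adjusted p = 7.87e-06, edgeR). The difference between the lines was -0.23 ± 0.05 (adjusted p = 0.000446, edgeR) and reached an adjusted p of 0.0992 without MOLM-13 vehicle library 2. H2AFY shares 4968 exonic bases with C5orf66 on the other strand, and without strand information reads there cannot be assigned. C5orf66 was at 72.2 to 107 CPM in the group means and was not called in either line (adjusted p = 0.674 and 0.129, edgeR).

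H2AFJ (chr12:14774383-14778002) encodes H2A.J. It stood near the filter, at 4.02 to 4.48 CPM with vehicle and 2.48 to 4.84 CPM with selinexor in OCI-AML2, and at 4.13 to 4.49 CPM against 3.11 to 4.75 CPM in MOLM-13. The groups overlapped in both lines. The log2 fold changes of -0.14 ± 0.24 and -0.15 ± 0.24 did not pass the test (adjusted p = 0.62 and 0.616, edgeR), and with 21 to 54 counts per library a change of the size seen in H3F3A would not have been detectable.

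The linker histone genes differed between the lines before treatment. H1FX (chr3:129314771-129316277) encodes H1X. In OCI-AML2 it was at 238, 257 and 235 CPM with vehicle and 176, 180 and 188 CPM with selinexor, a fall of 25.5% without overlap (log2 fold change -0.42 ± 0.04, adjusted p = 3.33e-11, edgeR). In MOLM-13 it was at 36.0, 38.0 and 38.6 CPM with vehicle and 37.0, 38.9 and 36.1 CPM with selinexor, with groups that overlapped (-0.01 ± 0.08, adjusted p = 0.95, edgeR). The interaction was 0.37 ± 0.08 (adjusted p = 0.000337, edgeR) and stayed past the threshold under all 18 alternatives with a test. Between the vehicle groups, H1FX was 6.31-fold lower in MOLM-13 (log2 difference -2.66 ± 0.06, adjusted p = 4.09e-60, edgeR). H1FX shares 345 exonic bases with H1FX-AS1 on the other strand.

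H1F0 (chr22:37805093-37807436) encodes H1.0. In OCI-AML2 the vehicle libraries held 2, 2 and 3 counts and the selinexor libraries 0, 0 and 0, at or under the floor, so that the gene was not tested there and no fold is given. In MOLM-13 the vehicle libraries held 44, 35 and 43 counts (5.35, 3.83 and 4.50 CPM) and the selinexor libraries 103, 96 and 113 (11.9, 10.0 and 14.1 CPM). Every selinexor library was above every vehicle library. The increase was 2.62-fold (log2 fold change 1.39 ± 0.19, adjusted p = 1.45e-10, edgeR), the largest rise among the members, on vehicle counts that were above the filter by themselves. Between the vehicle groups H1F0 was higher in MOLM-13, with a log2 difference of 4.37 ± 0.42 (adjusted p = 3.82e-16, edgeR) that rests on 7 counts in all in OCI-AML2. H1F0 entered the 12-library fit through its MOLM-13 counts alone, so a difference between the lines was built into its selection. The fitted interaction of 5.46 ± 1.48 (adjusted p = 0.00251, edgeR) sets that rise against 7 and 0 counts in OCI-AML2. Its size depends on how such counts are treated and is no bound.

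**Figure D3:**
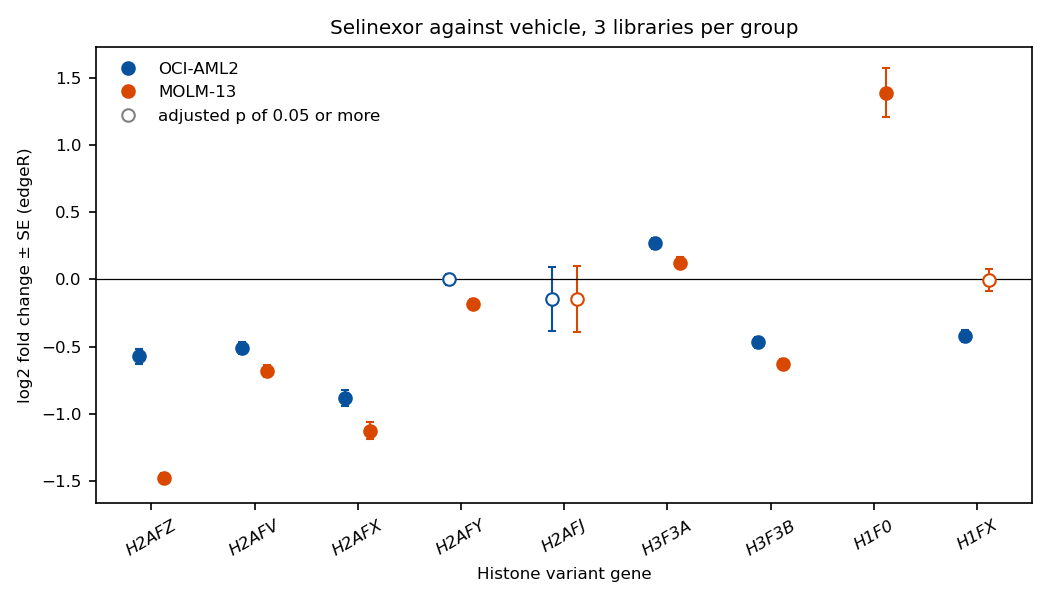
Log2 fold change of selinexor against vehicle for the 9 genes in OCI-AML2 (blue) and MOLM-13 (orange), with bars for the SE of the edgeR fit and open points for genes with an adjusted p of 0.05 or more; H1F0 was not tested in OCI-AML2. H2AFZ shows the widest gap between the lines, at -0.57 and -1.48.

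With vehicle, 8 of the 9 members were called different between the lines, 2 higher and 6 lower in MOLM-13. One of the higher genes was H1F0, which passed the filter of that fit through its MOLM-13 counts alone and so had to differ, which leaves 1 higher and 6 lower among the other 8. In the same comparison, 71.2% of 12530 genes were called, 35% higher and 36.2% lower. Beside H1FX and H1F0, the differences were modest. H3F3A was 1.45-fold lower in MOLM-13 (log2 difference -0.54 ± 0.04, adjusted p = 2.17e-21, edgeR). H2AFY, H2AFV, H2AFZ and H2AFX were lower by 20.2%, 18.3%, 17.5% and 11.5%, in that order. H3F3B was 7.84% higher (adjusted p = 0.00888, edgeR), and this call was lost without any 1 of 4 vehicle libraries, the 3 of OCI-AML2 and library 2 of MOLM-13. The H2AFX difference (adjusted p = 0.0177) was lost without MOLM-13 vehicle library 1 or 3.

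Levels of different genes were compared per kb of annotated exon. In OCI-AML2 with vehicle, H2AFZ was highest at 410 ± 37 CPM per kb (SD, n = 3). H3F3A and H1FX followed at 161 ± 6.2 and 161 ± 7.9 CPM per kb and did not differ beyond their spread, nor did H2AFX at 84.5 ± 6.4 and H3F3B at 80.3 ± 1.1. H2AFV was at 55.2 ± 2.5, H2AFY at 27.2 ± 0.66, H2AFJ at 1.27 ± 0.069 and H1F0 at 0.0911 ± 0.022 CPM per kb. In MOLM-13 with vehicle the order was H2AFZ at 329 ± 6.0, H3F3A at 108 ± 5.5, H3F3B at 84.4 ± 0.91, H2AFX at 73.0 ± 0.62, H2AFV at 44.0 ± 1.6, H1FX at 24.9 ± 0.92, H2AFY at 21.2 ± 0.28, H1F0 at 1.95 ± 0.32 and H2AFJ at 1.28 ± 0.053 CPM per kb. With selinexor H2AFZ stayed first in OCI-AML2, at 275 ± 9.9 against 194 ± 2.1 CPM per kb for H3F3A. In MOLM-13 it came level with H3F3A, at 118 ± 3.1 and 118 ± 6.8 CPM per kb. The annotated exons of H2AFY span 17730 bases and those of H2AFV 4749, against 2789 and 752 in their principal coding transcripts. With those shorter lengths H2AFV came at rank 3 in OCI-AML2 and rank 2 in MOLM-13, and H2AFY at rank 5 in both.

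Genes of the machinery that places and removes these histones moved in both directions. Of 20 genes of H2A.Z deposition and removal, all tested in both lines, 2 rose and 11 fell in OCI-AML2 and 1 rose and 10 fell in MOLM-13 (medians -0.14 and -0.19). ANP32E, the chaperone that takes H2A.Z out of nucleosomes, fell by 0.91 ± 0.04 and by 0.87 ± 0.04 on the log2 scale, and ACTL6A, a subunit of several remodelling complexes, fell by 0.69 ± 0.06 and by 0.90 ± 0.06. RUVBL1, an ATPase of the same complexes (-0.46 ± 0.05 and -0.44 ± 0.04), and YEATS4 (-0.31 ± 0.07 and -0.75 ± 0.07) also fell in both lines. ZNHIT1, a subunit of the SRCAP complex, rose by 0.46 ± 0.06 and 0.31 ± 0.06, and SRCAP itself, which exchanges H2A for H2A.Z, rose by 0.33 ± 0.13 in OCI-AML2. The genes described here and below as rising or falling had an adjusted p under 0.05 (edgeR, 3 libraries against 3, log2 fold change ± SE, OCI-AML2 before MOLM-13). Beside the counts of each list, 31.3% of all tested genes rose and 31.8% fell in OCI-AML2, and 31.8% did each in MOLM-13.

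Of the 7 genes of H3.3 deposition, 1 rose and 4 fell in OCI-AML2 and 2 rose and 4 fell in MOLM-13 (medians -0.25 and -0.18). HIRA, which places H3.3 in active chromatin, fell in both lines (-0.46 ± 0.12 and -0.35 ± 0.12). So did its partner UBN1 (-0.40 ± 0.06 and -0.22 ± 0.05) and the chaperone ASF1A (-0.25 ± 0.07 and -0.68 ± 0.05). CABIN1, another partner of HIRA, fell in OCI-AML2 only (-0.28 ± 0.06), and UBN2 rose in MOLM-13 only (0.28 ± 0.11). ATRX, which acts with DAXX at repeats and telomeres, rose in MOLM-13 (0.58 ± 0.06). DAXX was called in opposite directions, at 0.15 ± 0.07 in OCI-AML2 and -0.18 ± 0.06 in MOLM-13. Its adjusted p in OCI-AML2 was 0.0499, at the edge of the threshold.

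Most general and replication-coupled histone chaperones fell: 14 of 18 tested in OCI-AML2 and 15 of 19 in MOLM-13, with 1 and 2 rising (medians -0.50 and -0.82). NASP, which holds H3 and H4 before assembly, fell by 0.81 ± 0.04 and by 1.32 ± 0.05, and SSRP1, a subunit of FACT, fell by 0.88 ± 0.04 and by 1.00 ± 0.04. SET (-0.70 ± 0.04 and -0.62 ± 0.03) and MCM2, a helicase subunit that also binds histones (-0.63 ± 0.04 and -1.26 ± 0.04), fell in both lines too. NAP1L1, an H2A and H2B chaperone, rose by 0.30 ± 0.04 and 0.33 ± 0.03, and the elongation factor gene SUPT6H rose by 0.21 ± 0.04 in MOLM-13. Among kinases and readers of H2A.X, 2 of 18 rose and 8 fell in OCI-AML2, and 4 rose and 6 fell in MOLM-13 (medians -0.09 in both). Over all tested genes 63.1% and 63.6% were called, and the share of this list was no larger. ATM, a kinase that phosphorylates H2A.X, rose by 0.68 ± 0.06 and 0.92 ± 0.06, while MDC1, which binds the phosphorylated tail, fell by 0.59 ± 0.05 and by 0.71 ± 0.05 and BRCA1 fell by 0.58 ± 0.06 and by 1.39 ± 0.07. NBN (-0.62 ± 0.05 and -0.48 ± 0.06) and BAZ1B (-0.35 ± 0.04 and -0.46 ± 0.04) fell in both lines. MRE11 rose in OCI-AML2 only (0.26 ± 0.07), and EYA3 and TP53BP1 rose in MOLM-13 only (0.22 ± 0.08 and 0.16 ± 0.06).

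**Figure D4:**
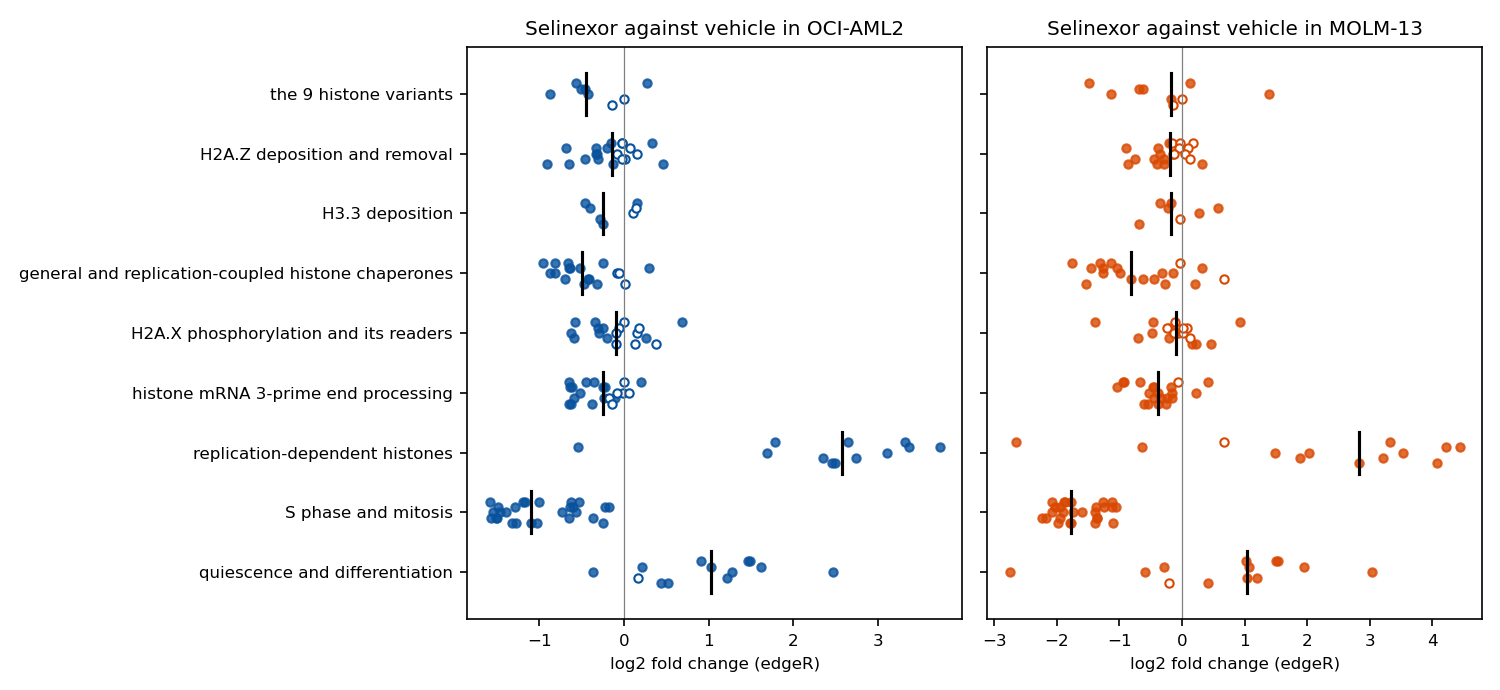
Log2 fold change of selinexor against vehicle for each tested gene (points) of the 9 variants and of 8 fixed gene lists, OCI-AML2 on the left and MOLM-13 on the right; filled points have an adjusted p under 0.05 and vertical bars are medians. The histone variants are centred at -0.45 (8 genes) and -0.18 (9 genes, with H1F0). These medians lie between those of the S phase and mitosis genes (-1.10 and -1.77) and of the quiescence and differentiation genes (1.02 and 1.04).

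All 27 S phase and mitosis genes fell in both lines, with medians of -1.10 in OCI-AML2 and -1.77 in MOLM-13. All 27 had a negative interaction past the threshold (median -0.71), beside 19% of all tested genes. In OCI-AML2 TOP2A fell by 1.39 ± 0.04, CDC20 by 1.46 ± 0.05 and BIRC5 by 1.58 ± 0.05, and in MOLM-13 TOP2A fell by 1.75 ± 0.04 and TYMS fell by 1.77 ± 0.04. The part of this shift in the fall of the variants was not tested. Of the variant histones outside the 9, CENPA, the centromeric H3, was the 1 tested, and it fell by 1.82 ± 0.10 and by 2.06 ± 0.12. H3F3C held 13 to 24 counts per group and H2AFY2 at most 2, and neither was tested.

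Quiescence and differentiation genes moved the other way, with 11 of 13 rising and 1 falling in OCI-AML2 and 9 rising and 3 falling in MOLM-13 (medians 1.02 and 1.04). LYZ, which encodes lysozyme, rose by 2.47 ± 0.04 and 3.04 ± 0.04. BTG1 rose by 1.46 ± 0.05 and 1.02 ± 0.05, and GAS6 by 1.28 ± 0.24 and 1.04 ± 0.04. CDKN2D fell by 0.36 ± 0.14 and by 0.58 ± 0.12. CDKN1B was called in opposite directions, at 0.22 ± 0.07 in OCI-AML2 and -0.28 ± 0.07 in MOLM-13. GAS1 fell in MOLM-13 (-2.75 ± 0.46), and whether vehicle alone carried it past the filter is not given here. Replication-dependent histone genes were mostly at too few counts to test, with 12 of 48 listed passing the filter in OCI-AML2 and 13 of 47 in MOLM-13. Of those, 11 and 10 rose and 1 and 2 fell (medians 2.58 and 2.83), but a gene that passed only through its level with selinexor, or only through that with vehicle, had to differ. Whether this holds for the genes named next is not given here. Poly(A) selection takes only those of their mRNAs that carry a tail, so these values do not measure their total mRNA. HIST1H2BK rose by 3.73 ± 0.08 and 4.22 ± 0.13 and HIST1H2AC by 3.36 ± 0.26 and 4.43 ± 0.31. HIST1H2BN rose by 3.11 ± 0.27 and 3.54 ± 0.29, and HIST1H4I by 3.32 ± 0.21 and 4.07 ± 0.20. HIST2H2BF fell by 0.54 ± 0.11 and fell by 0.64 ± 0.19, and HIST2H2AC fell by 2.66 ± 0.49 in MOLM-13. Of 21 tested genes of histone mRNA 3′ end processing, 14 fell and 1 rose in OCI-AML2 and 18 fell and 2 rose in MOLM-13 (medians -0.25 and -0.38). SLBP, which binds the stem-loop, fell by 0.45 ± 0.05 and by 0.92 ± 0.05, and SNRPF by 0.63 ± 0.05 and by 0.54 ± 0.04. SNRPB (-0.61 ± 0.05 and -1.04 ± 0.06) and SNRPG (-0.65 ± 0.12 and -0.94 ± 0.05) fell in both lines as well. TUT7, a uridyl transferase, rose by 0.20 ± 0.09 and 0.41 ± 0.09, and SNRPD3 rose by 0.22 ± 0.06 in MOLM-13. Histone genes of 1 family are near copies, and their separate counts are uncertain.

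The genes most like each member over the 12 libraries were found by Pearson's r of log2 CPM among 10290 genes with a mean of at least 5 CPM. The libraries form 4 groups of 3, which these values mainly follow, so they describe a shared pattern over 4 groups and carry no test. The nearest to H2AFZ were GGH, FIGNL1 and TACC3 (r = 0.993, 0.992 and 0.992). NEK2, a mitotic kinase, DEPDC1 and the tubulin gene TUBA1C were nearest to H2AFV (0.994, 0.993 and 0.991), and CDC20, which activates the anaphase-promoting complex, SRRM1 and DDX11 to H2AFX (0.988, 0.988 and 0.985). H3F3B was most like ZWINT, a kinetochore gene, MCM10, a replication gene, and HNRNPD (0.990, 0.989 and 0.989). H3F3A was most like TMED8, PTGS1 and IAH1 (0.993, 0.992 and 0.991), which had log2 fold changes of 0.54, 1.02 and 0.37 in OCI-AML2 and 0.23, 0.57 and 0.10 in MOLM-13. SLFN11 and PPIB were among the nearest to H2AFY (0.995 and 0.991), ADCY7, KRI1 and CDC42EP3 to H1F0 (0.997, 0.996 and 0.993) and SQLE, SVIP and ALX1 to H1FX (0.998, 0.997 and 0.997). H1F0 was at or under the floor in every OCI-AML2 library, so its r mostly follows the line. SVIP and ALX1 were not tested in MOLM-13. For H2AFJ the highest values were lower, with ABHD1, TIMM8A and APTX at 0.853, 0.819 and 0.817.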

How the data were processed

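Poly(A) RNA of 12 libraries, 3 for each of 4 groups, was sequenced without strand information, according to the labels. STAR, hg38, R 3.6.1 and DESeq2 are named in the submitters' processing notes. Which program counted the reads, and on which annotation, is not given in the sources used here. Per line, the authors deposited 1 table of whole-number counts per gene and library. The columns carry no replicate numbers, and library numbers follow column order.

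From the counts, edgeR 4.0.16 (R 4.3.3) was run with TMM scaling, filterByExpr (minimum count 10, minimum total 15), robust quasi-likelihood tests and Benjamini-Hochberg adjustment over all tested genes (threshold 0.05). Each line was fitted alone. Differences between the lines came from a 12-library fit on the 15615 genes in both tables. CPM levels are scaled within a line. Total counts of 8114892 to 11769061 per library set the precision. The fits were also run on simulated counts, with far fewer genes changed than were called here. That run does not bear on scaling or error rates under changes this broad. Ratios within pairs of genes were compared by exact permutation.

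Positions and lengths come from GENCODE 29, matched by symbol (9 of 9), and promoters from RefSeq GRCh38.p14 (8 of 9; H1F0 was unmatched).

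Named genes are the members, XPO1, CDKN1A and MKI67, up to 3 genes per fixed list, line and direction by smallest adjusted p, and the 3 genes most like each member. A gene taken by this rule is not reported here. C5orf66, UNK, H3F3C and H2AFY2 were added after their values were seen. Members and lists were chosen with earlier results of these data known. The alternatives were DESeq2 1.42.0, limma 3.58.1 (voom), other scalings, no filter, thinning, a joint fit, other lengths and leaving out each library.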

Additional observations from a re-analysis of the deposited data

Results flagged for a closer look

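In the test of the interaction itself, the response to selinexor was called different between the lines for 8 of the 9 members, or 7 of 8 without H1F0, which passed the filter of that fit through MOLM-13 alone (edgeR, adjusted over 12530 genes, of which 30.1% were called; log2 scale, MOLM-13 minus OCI-AML2, 3 libraries per group). The difference was -0.95 for H2AFZ, whose 3 selinexor libraries lay below all 3 vehicle libraries in each line. It was 0.37 for H1FX, which fell in OCI-AML2 and overlapped between groups in MOLM-13. Both stayed past the threshold under all 18 alternatives with a test. It was 5.46 for H1F0, against 7 and 0 counts in OCI-AML2, and that value is no bound. The smaller differences were -0.30 for H2AFX, -0.23 for H2AFY, -0.22 for H2AFV, -0.21 for H3F3B and -0.19 for H3F3A, and each of these missed the threshold without at least 1 library. Under TMM scaling of the 12 libraries the median of all tested genes in this comparison was -0.04, and 36.8% of the called genes were higher in MOLM-13. With upper quartile scaling the median was 0.02 and the share 49.2%. With each line scaled alone, which gives no test, the differences were -0.91 for H2AFZ, -0.25 for H2AFX, -0.18 for H2AFY, -0.17 for H2AFV, -0.16 for H3F3B, -0.14 for H3F3A and 0.42 for H1FX.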

How the results depend on the processing

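No paired analysis was possible because the columns of the count tables carry no replicate numbers, so the planned replicate block was not run. Adding pseudogene rows to the pair ratios was not run either, since 0 such rows are in the tables. Within each line, the calls of the members tested there kept their direction and side of the threshold under all 13 alternatives, except H3F3A in MOLM-13 without selinexor library 3. H1F0, not tested in OCI-AML2 alone, entered the joint fit of 12 libraries through MOLM-13 and was called lower in OCI-AML2 there, on 7 against 0 counts, which makes 6 members lower in place of 5. The number of members called higher in MOLM-13 was 1 to 2 when 1 library was left out, and the number called higher between the vehicle groups was 1 to 2, where H3F3B lost its call. The number with a negative difference between the lines was 1 to 6 when 1 library was left out, with 1 left, H2AFZ, without OCI-AML2 vehicle library 1 or MOLM-13 vehicle library 2, and 4 with DESeq2 or upper quartile scaling. The cause was not tested.

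The order of levels per kb depends on the length. In OCI-AML2 with vehicle, the longest transcript put H3F3B 3rd, H1FX 4th and H2AFX 5th of 9, in place of 5th, 3rd and 4th. In MOLM-13 it put H3F3B at rank 2, H3F3A at rank 3, H2AFY at rank 6 and H1FX at rank 7. With the principal transcript, an alternative chosen after seeing the data, the ranks in OCI-AML2 were 3 for H2AFV, 4 for H3F3B, 5 for H2AFY, 6 for H1FX and 7 for H2AFX. In MOLM-13 they were 2 for H2AFV, 3 for H3F3A, 4 for H3F3B, 5 for H2AFY, 6 for H2AFX, 7 for H1FX, 8 for H2AFJ and 9 for H1F0. Depth limits H1F0 in OCI-AML2, with 7 counts in all, and H2AFJ, with 21 to 54 counts per library.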
